A study of Homo sapiens with 12 samples.

Results

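The spindle assembly checkpoint is represented here by 10 genes of the 60671 listed in the deposited expression table. They were chosen by name for their known role, and each matched 1 row. They are CDC20, MAD2L1, BUB1B, BUB3, MAD1L1, BUB1, TTK, ZW10, KNTC1 and MAD2L1BP. All 10 passed the filter on low values, a mean of at least 1 FPKM (fragments per unit of gene length and of library size), which 11591 genes passed.

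RNA was sequenced from cells labelled Jurkat, the name of an established human leukemia line of T cell origin, in 4 groups of 3 libraries. Control (NC) cells are labelled WT and, in the study's methods, carry the pHIV7/SFFV-GFP vector, while PTPN21 cells carry FLAG-tagged PTPN21 driven by the SFFV promoter in the same lentiviral backbone, so the level of PTPN21 is that of a viral promoter. Each was treated for 48 h with vincristine (VCR) or with DMSO, which gives NC+DMSO and NC+VCR for the control cells and PTPN21+DMSO and PTPN21+VCR for the overexpressing cells. The sources used here do not give the VCR dose of these libraries, nor whether replicates were separate cultures, so p-values measure the spread between libraries, which may be technical.

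The checkpoint delays the separation of chromosomes until every kinetochore, the protein platform on the centromere, is held by spindle microtubules. At an empty kinetochore the MAD1L1 and MAD2L1 proteins help to form the mitotic checkpoint complex, in which MAD2L1, BUB1B (BubR1) and BUB3 hold CDC20. CDC20 is the activator of the anaphase-promoting complex (APC/C), the ubiquitin ligase that marks securin (PTTG1) and cyclin B1 (CCNB1) for destruction. VCR blocks the assembly of tubulin into microtubules, so that kinetochores stay empty. The protein complex forms from proteins already made, and the libraries hold only its transcripts.

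Positions are those of GENCODE release 29 on GRCh38. CDC20 (ENSG00000117399) lies on chromosome 1 from 43358955 to 43363203, plus strand. Its inhibitors are MAD2L1 (ENSG00000164109; chromosome 4, 120055608 to 120067074, minus strand), BUB1B (ENSG00000156970; chromosome 15, 40161023 to 40221136, plus strand) and BUB3 (ENSG00000154473; chromosome 10, 123154277 to 123170467, plus strand). MAD1L1 (ENSG00000002822; chromosome 7, 1815793 to 2233243, minus strand) encodes the kinetochore receptor of MAD2L1. The kinases are BUB1 (ENSG00000169679; chromosome 2, 110637698 to 110678114, minus strand), which marks centromeric chromatin and recruits other checkpoint proteins, and TTK (ENSG00000112742; chromosome 6, 80003887 to 80042527, plus strand), also named MPS1, which starts the signal. ZW10 (ENSG00000086827; chromosome 11, 113733187 to 113773811, minus strand) and KNTC1 (ENSG00000184445; chromosome 12, 122527246 to 122626396, plus strand), also named ROD, belong to the RZZ complex that brings dynein and MAD1L1 to kinetochores. MAD2L1BP (ENSG00000124688; chromosome 6, 43629540 to 43640952, plus strand), also named p31comet, works with the ATPase TRIP13 to take the inhibitory complex apart. The genes overlapping a member's exons in that annotation and listed in the table, BUB1B-PAK6 and AC073475.1, had a mean of 0 FPKM.

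Many mitotic genes carry short elements, the CHR and the CCAAT box, near their start. Shown are the promoters of 4 members whose transcripts differed with VCR in NC or PTPN21 cells, with FPKM as deposited. Each runs from 200 bases before to 20 bases after the start, in RefSeq on GRCh38.p14, and capitals mark TTTGAA (CHR), its variant TTCGAA, or CCAAT, on either strand. The windows are CDC20 at chr1:43358781-43359000 (plus strand), BUB1B at chr15:40160869-40161088 (plus strand), BUB1 at chr2:110678044-110678263 (minus strand) and MAD1L1 at chr7:2232926-2233145 (minus strand).
CDC20: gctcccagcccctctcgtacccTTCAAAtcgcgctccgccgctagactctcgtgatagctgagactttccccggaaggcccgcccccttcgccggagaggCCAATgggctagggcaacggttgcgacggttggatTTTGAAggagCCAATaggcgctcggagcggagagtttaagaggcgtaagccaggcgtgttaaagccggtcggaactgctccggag
BUB1B: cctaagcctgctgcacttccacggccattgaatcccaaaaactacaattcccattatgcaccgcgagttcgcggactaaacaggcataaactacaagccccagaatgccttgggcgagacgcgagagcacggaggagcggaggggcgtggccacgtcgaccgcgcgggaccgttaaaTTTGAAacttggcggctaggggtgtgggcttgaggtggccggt
BUB1: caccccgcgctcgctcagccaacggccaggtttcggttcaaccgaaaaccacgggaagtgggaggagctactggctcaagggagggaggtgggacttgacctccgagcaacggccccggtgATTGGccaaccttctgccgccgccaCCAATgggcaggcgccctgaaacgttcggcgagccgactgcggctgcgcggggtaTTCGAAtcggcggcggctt
MAD1L1: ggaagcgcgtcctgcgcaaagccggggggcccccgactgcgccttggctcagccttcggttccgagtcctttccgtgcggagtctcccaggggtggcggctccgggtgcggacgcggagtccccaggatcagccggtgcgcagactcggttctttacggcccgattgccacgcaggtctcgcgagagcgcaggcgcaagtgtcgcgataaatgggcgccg

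CDC20 holds TTTGAA on the gene's own strand from base -65, with a CCAAT starting 10 bases further on, and again on the other strand from base -178, while BUB1B holds one from base -23. BUB1 holds TTCGAA from base 2, behind a pair of CCAAT boxes, and the MAD1L1 window holds none of these letters. In windows of 250 bases before to 50 after the start, matched for 7 of the 10 members (8 windows, since MAD2L1BP has 2), TTTGAA was present in 5 windows (BUB1B, CDC20, MAD2L1, ZW10 and the second of MAD2L1BP), against 15.2% of 35116 promoter windows of the same length. CCAAT was present in 4 of the 8 windows (BUB1, CDC20, MAD2L1 and ZW10), against 34.6% of windows, and TTCGAA in BUB1, against 1.45%. TTTCCCGC and TTTGGCGC, E2F-type letters held by 1.63% and 0.652% of windows, were in none of the 8. A match is a description of the letters and not evidence of a bound site.

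PTPN21, checked first, stood at 0.0638 ± 0.0378 FPKM (SD, n = 3) in NC+DMSO and 8.82 ± 1.48 (SD, n = 3) in PTPN21+DMSO, and with VCR at 0.367 ± 0.205 (SD, n = 3) for NC cells and 5.74 ± 1.21 (SD, n = 3) for PTPN21 cells, with no overlap between NC and PTPN21 libraries. The T lymphocyte label was not borne out by defining transcripts. Of 15 T cell markers only CD3D, TAL1 and TRBC1 passed the filter, CD247, CD5, CD28 and LCK were listed at 0 in all 12 libraries, and CD3E, CD2 and BCL11B were at or near 0. CD3D stood at 79.3 ± 16.2 FPKM (SD, n = 3) in NC+DMSO. Of 6 erythroid markers 5 passed, and their summed FPKM ran from 435 to 622 in NC+DMSO and 285 to 330 in NC+VCR, and from 785 to 1037 in PTPN21+DMSO and 303 to 421 in PTPN21+VCR, with HBG1 leading and HBB at or near 0. Of 8 myeloid markers 3 passed (summed FPKM 30.6 to 64.8) and of 7 B cell markers none. A list of 5 genes of the HEK293T packaging line, led by the keratin KRT8, summed to 401 to 599 in the DMSO groups and 1171 to 1685 in the VCR groups, but did not move as one: KRT8, KRT18 and VGF rose with VCR in both cell populations, EPCAM was not called, and LIN28B fell in NC cells (limma adjusted p = 0.00198). These sums moved with VCR, as did the share of FPKM from mitochondrial genes (9.27% to 11.7% in DMSO libraries, 6.21% to 7.89% in VCR libraries). Without VCR the erythroid sums and the mitochondrial share also differed with PTPN21. That share was 11.37% to 11.74% in NC+DMSO and 9.27% to 9.99% in PTPN21+DMSO. The part of these shifts in the results below was not tested. The text therefore speaks of libraries by group, without relying on a cell type.

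In NC+DMSO the order of the members by mean FPKM, a level per length, was BUB1 (115 ± 8.25, SD, n = 3), KNTC1 (54.2 ± 18.2), BUB3 (34.2 ± 1.52), BUB1B (33.9 ± 9.70), CDC20 (22.9 ± 0.591), MAD1L1 (22.6 ± 1.81), MAD2L1 (21.2 ± 8.35), TTK (18.1 ± 2.28), MAD2L1BP (13.8 ± 2.21) and ZW10 (11.4 ± 1.82). BUB1 stood above every other member in each of the 12 libraries. The libraries of neighbours in this order overlapped, except between BUB1 and KNTC1, between KNTC1 and BUB3 and between BUB1B and CDC20. In PTPN21+VCR CDC20 had moved to the second place, at 50.02 ± 1.39 FPKM (SD, n = 3), behind BUB1 at 94.9 ± 1.16.

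**Figure D1:**
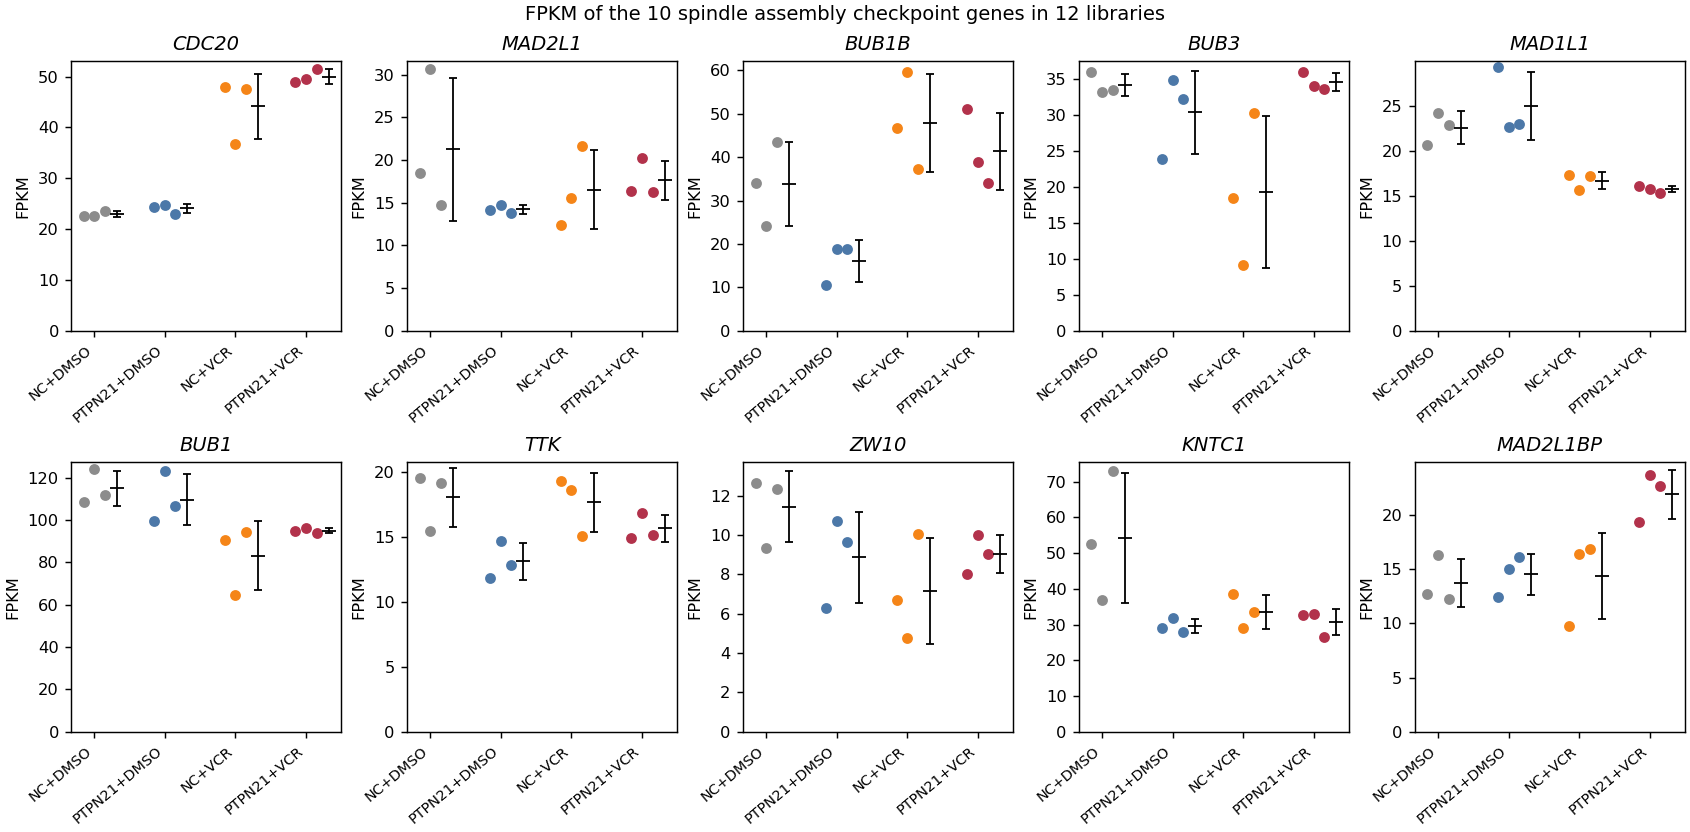
FPKM of each checkpoint gene (vertical axis, from 0) in the 3 libraries of each of the 4 groups (points), with the group mean and SD (bars). The 6 VCR libraries sit above the 6 DMSO libraries for CDC20 and below them for MAD1L1, while the 3 NC+VCR libraries are spread widely for BUB3.

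With VCR, CDC20 rose in both cell populations, about 2-fold. It was the checkpoint gene with the steadiest change. In NC+DMSO its FPKM was 22.5, 22.6 and 23.6 in replicates 1 to 3, and in NC+VCR it was 48.0, 36.7 and 47.6. In PTPN21+DMSO it was 24.4, 24.7 and 23.1, and in PTPN21+VCR it was 49.0, 49.5 and 51.6. All 6 VCR libraries stood above all 6 DMSO libraries. The log2 fold change of FPKM + 1, a scale that understates changes of low values, was 0.91 (standard error, SE, 0.126, limma adjusted p = 0.00028) in NC cells and 1.03 (SE 0.126, limma adjusted p = 0.000141) in PTPN21 cells, with Benjamini-Hochberg adjustment over all genes.

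In NC cells 5 of the 10 members passed the threshold with VCR, CDC20 higher and MAD1L1, BUB1, BUB3 and KNTC1 lower, while 36.2% of all 11591 genes passed, 7.91% higher and 28.3% lower. The median log2 fold change of the members, -0.36, equalled that of all genes, -0.36. The libraries of NC+VCR and NC+DMSO did not overlap for 4 members (CDC20 above, MAD1L1, BUB1 and BUB3 below), against 44.1% of all genes.

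BUB1, the kinase that recruits other checkpoint proteins, stood at 109, 124 and 112 FPKM in NC+DMSO and at 90.7, 64.5 and 94.2 in NC+VCR (log2 fold change -0.48, SE 0.144, limma adjusted p = 0.0223). BUB3, which carries BUB1 and BUB1B to kinetochores, stood at 35.9, 33.1 and 33.4 in NC+DMSO and at 18.4, 9.16 and 30.3 in NC+VCR (log2 fold change -0.94, SE 0.305, limma adjusted p = 0.0313). NC+VCR replicate 2 was the lowest library for both. Without it the log2 fold change of BUB1 was -0.31 (limma adjusted p = 0.0716) and that of BUB3 -0.51 (limma adjusted p = 0.0844). The call of BUB1 was also lost without NC+DMSO replicate 2 (limma adjusted p = 0.065), and that of BUB3 without any of NC+DMSO replicates 1 to 3 or NC+VCR replicate 1 (limma adjusted p 0.0547 to 0.0765).

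KNTC1, of the RZZ complex, stood at 52.6, 36.8 and 73.1 FPKM in NC+DMSO and at 38.4, 28.95 and 33.4 in NC+VCR, with 1 overlap between the groups (log2 fold change -0.63, SE 0.211, limma adjusted p = 0.0354). Its partner ZW10 stood at 12.6, 9.34 and 12.3 in NC+DMSO and 6.67, 4.74 and 10.1 in NC+VCR, and missed the threshold (log2 fold change -0.65, SE 0.255, limma adjusted p = 0.065). ZW10 passed it in 4 of 24 other settings, among them TPM scaling (-0.75, limma adjusted p = 0.0436) and without NC+VCR replicate 3 (-0.90, limma adjusted p = 0.0176). The call of KNTC1 was lost without NC+DMSO replicate 1 or 3 or NC+VCR replicate 2 or 3, with a log2 fold change of -0.39 without NC+DMSO replicate 3. MAD1L1 stood at 20.6, 24.2 and 22.9 in NC+DMSO and at 17.3, 15.6 and 17.2 in NC+VCR (log2 fold change -0.41, SE 0.139, limma adjusted p = 0.036), and the call was lost without any of 6 libraries (NC+DMSO replicate 2 or 3, NC+VCR replicate 1, 2 or 3 and PTPN21+VCR replicate 1), at limma adjusted p 0.0505 to 0.0925.

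The 4 lower members of NC cells lay at different distances from the shift of all genes in the deposited scaling. Relative to the median of all genes the log2 difference was -0.05 for MAD1L1, -0.12 for BUB1, -0.27 for KNTC1 and -0.58 for BUB3, and 1.27 for CDC20. Scaling the libraries by median ratios moved the median of all genes from -0.36 to -0.03, and the split of genes called from 21.9% to 56.5% higher. None of the 4 then passed the threshold (limma adjusted p 0.177 to 0.908), nor under quantile normalization (0.082 to 0.615). BUB3 had a log2 fold change of -0.55 and -0.67 under the 2 scalings, KNTC1 of -0.24 and -0.45 and BUB1 of -0.08 and -0.35, while MAD1L1 was at -0.03 and -0.11. CDC20 passed under both, and BUB1B, at a log2 fold change of 0.89, passed under median ratios (limma adjusted p = 0.0203). MAD2L1 and TTK, not called in NC cells under any of these scalings, changed sign under both, and MAD2L1BP did so with TPM scaling.

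**Figure D2:**
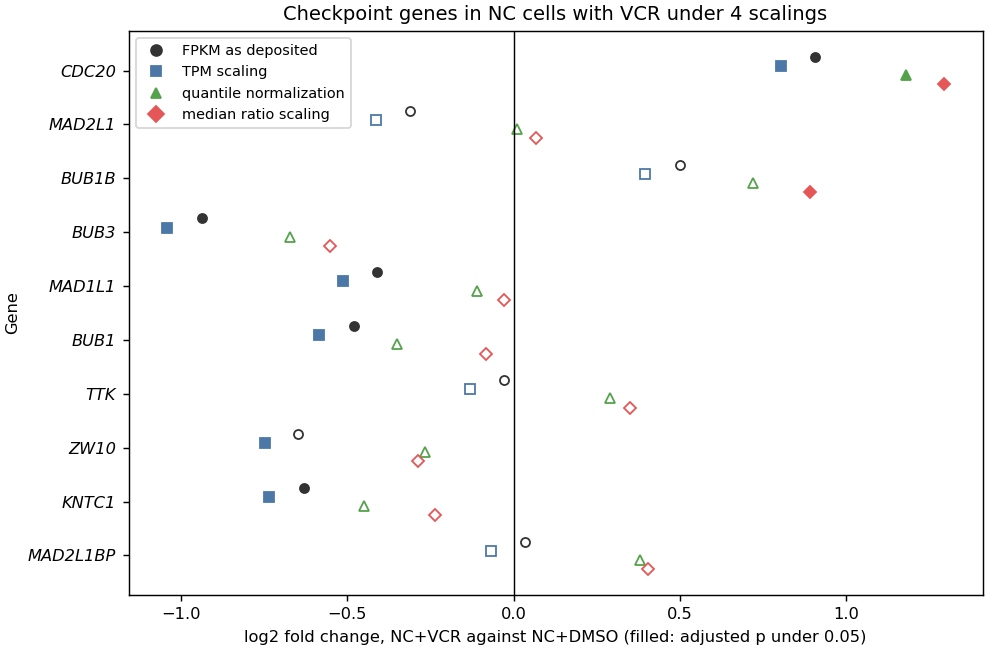
Log2 fold change of each checkpoint gene in NC+VCR against NC+DMSO (horizontal axis) under 4 scalings of the libraries, filled where the limma adjusted p is under 0.05. CDC20 is filled under all 4, while MAD1L1, BUB1, BUB3 and KNTC1 are filled with FPKM as deposited and with TPM scaling and open with the other two.

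In PTPN21 cells 3 of the 10 members passed the threshold with VCR, CDC20 and BUB1B higher and MAD1L1 lower, while 28.5% of all genes passed, 9.22% higher and 19.3% lower. The median log2 fold change of the members was 0.22, against -0.17 for all genes. The libraries did not overlap for 7 members, 5 above (CDC20, BUB1B, MAD2L1, MAD2L1BP and TTK) and 2 below (MAD1L1 and BUB1), against 50.4% of all genes. Median ratio scaling moved the median of all genes to -0.02 and the split of genes called from 32.3% to 51.2% higher.

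BUB1B, the inhibitor that binds CDC20 and the APC/C, stood at 10.6, 18.9 and 18.8 FPKM in PTPN21+DMSO and at 51.2, 38.9 and 34.1 in PTPN21+VCR. This was the largest log2 fold change of a member, 1.34 (SE 0.27, limma adjusted p = 0.00341). In NC cells BUB1B stood at 34.2, 24.03 and 43.4 with DMSO and at 46.6, 59.7 and 37.3 with VCR, overlapping, and did not pass the threshold (limma adjusted p = 0.166). The 2 VCR groups thus overlapped for BUB1B, and the groups that stood apart were those with DMSO.

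MAD1L1 fell in PTPN21 cells, from 29.3, 22.7 and 23.0 FPKM with DMSO to 16.1, 15.7 and 15.4 with VCR (log2 fold change -0.63, SE 0.139, limma adjusted p = 0.00568). All 6 VCR libraries, 15.4 to 17.3 FPKM, stood below all 6 DMSO libraries, 20.6 to 29.3. MAD1L1 has the highest GC content of the members, 62.6%, and VCR libraries held relatively more of the GC-poor genes (a log2 difference of genes under 42% and over 58% GC, relative to the mean of all libraries, of 0.087 to 0.43, against -0.48 to 0.099 in DMSO libraries). With trends of GC content and length removed, the log2 fold change was -0.21 in PTPN21 cells and -0.17 in NC cells, and neither passed the threshold (limma adjusted p 0.226 and 0.273). The GC trend went with VCR, so a bias of the libraries and a response to VCR cannot be told apart. The cause of the fall was not tested.

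MAD2L1BP, which helps to take the inhibitory complex apart, stood at 12.5, 15.0 and 16.1 FPKM in PTPN21+DMSO and 19.4, 23.7 and 22.7 in PTPN21+VCR. Its log2 fold change, 0.56 (SE 0.208, limma adjusted p = 0.0612), missed the threshold, and passed it in 8 of 24 other settings, among them without NC+VCR replicate 1 (limma adjusted p = 0.0224). In NC cells the libraries overlapped (12.7, 16.3 and 12.3 with DMSO, 9.77, 16.4 and 16.9 with VCR; limma adjusted p = 0.915). MAD2L1, the inhibitor itself, stood at 14.1, 14.8 and 13.8 in PTPN21+DMSO and at 16.3, 20.2 and 16.2 in PTPN21+VCR, without overlap but short of the threshold (limma adjusted p = 0.43). TTK stood at 11.9, 14.7 and 12.8 in PTPN21+DMSO and at 15.0, 16.9 and 15.2 in PTPN21+VCR (log2 fold change 0.24, limma adjusted p = 0.275). It passed the threshold under quantile normalization (0.43, limma adjusted p = 0.0432) and missed it under median ratio scaling (0.41, limma adjusted p = 0.0596).

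The other members had adjusted p of 0.326 to 0.913 with VCR in PTPN21 cells. BUB1 was at 99.4, 123 and 106 FPKM with DMSO and 94.8, 96.1 and 93.8 with VCR. BUB3 was at 23.9, 34.9 and 32.3 with DMSO and 36.0, 34.0 and 33.6 with VCR, so that the low values of NC+VCR had no counterpart there. ZW10 was at 6.28, 10.7 and 9.63 with DMSO and 8.04, 9.99 and 9.04 with VCR, and KNTC1 at 29.1, 31.7 and 28.0 with DMSO and 32.6, 33.0 and 26.4 with VCR.

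**Figure D3:**
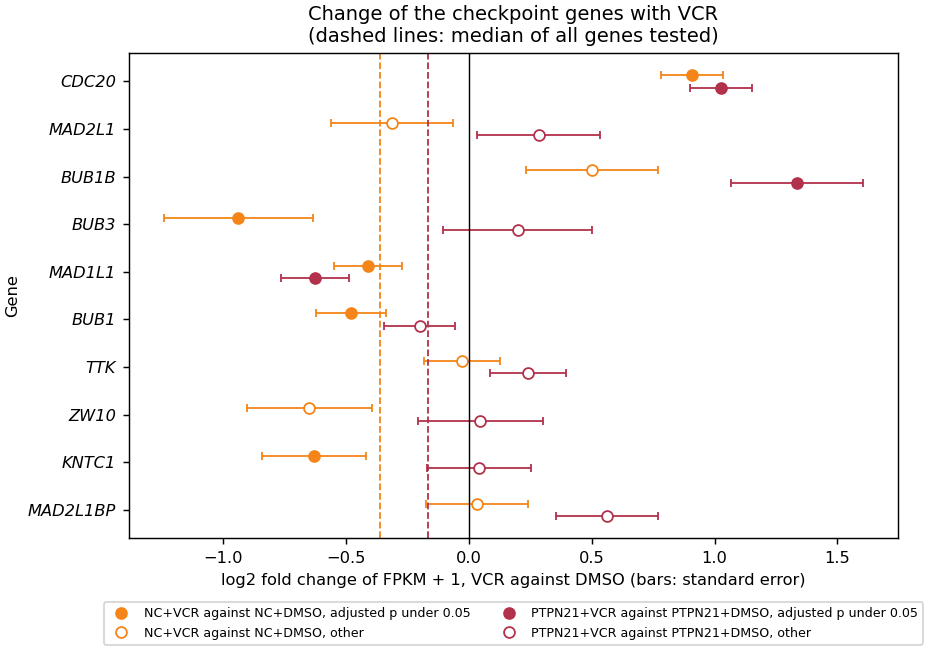
Log2 fold change with VCR (horizontal axis, points) of each checkpoint gene with its SE (bars), in NC cells (orange) and PTPN21 cells (red), filled where the limma adjusted p is under 0.05. CDC20 lies near 1 in both, BUB1B is filled in PTPN21 cells, and dashed lines mark the medians of all genes, -0.36 and -0.17.

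PTPN21 overexpression without VCR was compared next. Between PTPN21+DMSO and NC+DMSO 2 of the 10 members passed the threshold, BUB1B and KNTC1, both lower, while 6.34% of all genes passed, 3.69% lower. The libraries did not overlap for 3 members, BUB1B, KNTC1 and TTK, all below, against 33.4% of all genes. The BUB1B libraries, at 24.03 to 43.4 FPKM in NC+DMSO and 10.6 to 18.9 in PTPN21+DMSO, gave a log2 fold change of -1.04 (SE 0.27, limma adjusted p = 0.0435). The KNTC1 libraries, at 36.8 to 73.1 and 28.0 to 31.7, gave -0.80 (SE 0.211, limma adjusted p = 0.0448). TTK stood at 19.6, 15.4 and 19.2 in NC+DMSO and 11.9 to 14.7 in PTPN21+DMSO, with a log2 fold change of -0.43 that missed the threshold (limma adjusted p = 0.113).

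The calls of BUB1B and KNTC1 were fragile. Of 24 other settings, BUB1B passed in 7 and KNTC1 in 6. With 1 library left out both calls were lost for 9 of the 12 choices (NC+DMSO replicate 1 or 3, NC+VCR replicate 1, or any library of PTPN21+DMSO or PTPN21+VCR), and that of KNTC1 also without NC+VCR replicate 3, at log2 fold changes from -0.78 to -1.17 for BUB1B and -0.56 to -0.85 for KNTC1. Long transcripts were relatively scarce in PTPN21+DMSO (a log2 difference of transcripts over 6000 and under 2000 bases, relative to the mean of all libraries, of -0.40 to -0.19, against -0.06 to 0.52 in NC+DMSO), and KNTC1 has a transcript of 6975 bases. BUB3, with 7828 bases, was not called there (limma adjusted p = 0.752), and BUB1B has 3725. These lengths are those of the longest annotated transcript of each gene, and the transcripts expressed here were not determined. With trends of GC content and length removed, KNTC1 was at -0.51 (limma adjusted p = 0.108) and BUB1B at -0.90 (limma adjusted p = 0.0622). The length trend went with the groups compared, and its part in these calls was not tested.

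With VCR present, PTPN21+VCR and NC+VCR, the groups that the study's methods name for the sequencing, differed in none of the 10 members by limma, while 1.82% of all genes passed. At an unadjusted p under 0.05 there were 2 members, against 17.1% of all genes, which is about the same share. They were BUB3 (log2 fold change 0.95, SE 0.305, limma adjusted p = 0.131) and MAD2L1BP (0.61, SE 0.208, limma adjusted p = 0.153). The libraries did not overlap for 3 members, BUB3, MAD2L1BP and CDC20, all above in PTPN21+VCR, against 22.5% of all genes. BUB3 stood at 33.6 to 36.0 FPKM in PTPN21+VCR and at 9.16 to 30.3 in NC+VCR, and passed the threshold without NC+VCR replicate 3, the highest of that group (1.34, limma adjusted p = 0.0248). CDC20 stood at 49.0 to 51.6 in PTPN21+VCR and 36.7 to 48.0 in NC+VCR (limma adjusted p = 0.488).

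The interaction of PTPN21 and VCR, which asks whether the change with VCR differed between the cells, was past the threshold for none of the members by limma, while 0.129% of all genes passed. At an unadjusted p under 0.05 there were 3 members, against 14% of all genes. They were BUB3 (1.14 on the log2 scale, SE 0.431, limma adjusted p = 0.281), BUB1B (0.84, SE 0.382, limma adjusted p = 0.356) and KNTC1 (0.67, SE 0.298, limma adjusted p = 0.343). A call in one cell population and not in the other, as for BUB1B, BUB1, BUB3 and KNTC1, was therefore not shown to differ between them. The interaction was above 0 for 9 of the 10 members, all except MAD1L1. Their median was 0.56, against 0.17 for all genes, so most genes lay above 0 too, at a share that was not computed. With median ratio scaling the median of all genes was -0.008, and BUB1 and TTK were at 0.065 and 0.063. With median ratio scaling or quantile normalization the interaction of CDC20 turned negative, at -0.09 and -0.02.

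Inhibitor transcripts were set against CDC20 by the log2 ratio of their FPKM in the same library, which multiplying a library by a factor does not alter. MAD2L1 to CDC20 was -0.29, 0.44 and -0.69 in NC+DMSO and -0.79, -0.74 and -0.75 in PTPN21+DMSO. It was -1.95, -1.24 and -1.14 in NC+VCR and -1.59, -1.29 and -1.67 in PTPN21+VCR, so the VCR libraries lay below all DMSO libraries. BUB3 to CDC20 was 0.68, 0.55 and 0.50 in NC+DMSO and -0.03, 0.50 and 0.49 in PTPN21+DMSO.
It was -1.38, -2.004 and -0.65 in NC+VCR and -0.45, -0.54 and -0.62 in PTPN21+VCR, again below all DMSO libraries, with NC+VCR replicate 2 the lowest. BUB1B to CDC20 did not separate by VCR. It was 0.53 ± 0.40 (SD, n = 3) in NC+DMSO and 0.10 ± 0.54 in NC+VCR, and -0.63 ± 0.50 in PTPN21+DMSO and -0.30 ± 0.34 in PTPN21+VCR. These ratios are descriptions, and CDC20 enters each of them. The rise of CDC20 with VCR by itself lowers any such ratio. With VCR, MAD2L1 was called in neither NC nor PTPN21 cells (limma adjusted p 0.345 and 0.43), and BUB3 only in NC cells. The share of all genes whose ratio to CDC20 separates in this way was not computed.

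**Figure D4:**
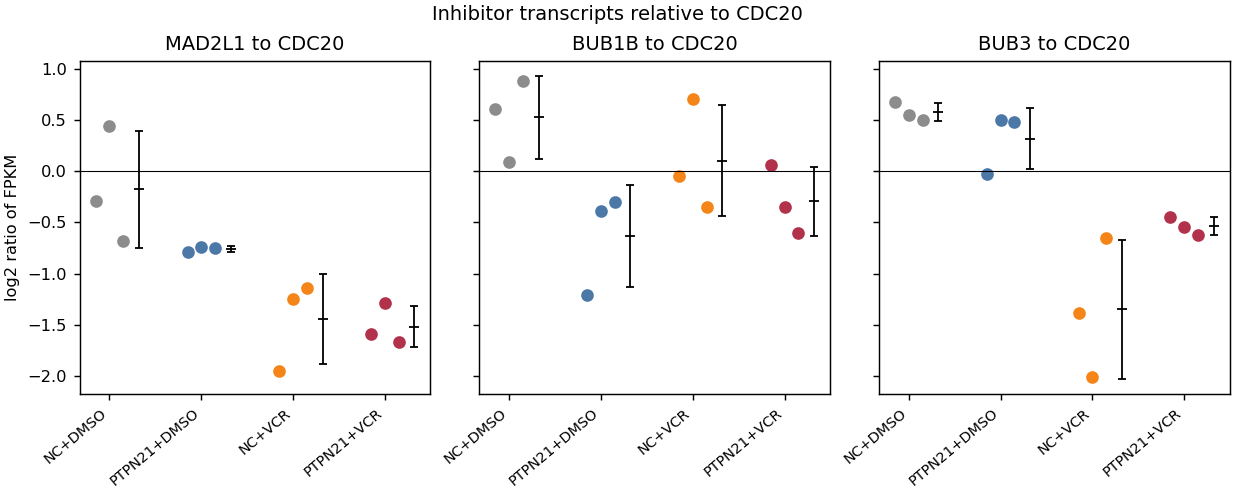
Log2 ratio of FPKM of MAD2L1, BUB1B and BUB3 to CDC20 (vertical axis) in the 3 libraries of each group (points), with the mean and SD (bars). For MAD2L1 and BUB3 every VCR library lies below every DMSO library, and for BUB1B the NC+DMSO libraries lie above those of both PTPN21 groups.

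Around the members, the lists of pathway genes are described by their counts and medians, beside the medians and shares of all genes. With VCR these shares were 7.91% higher and 28.3% lower in NC cells, and 9.22% and 19.3% in PTPN21 cells. With PTPN21 in DMSO 6.34% passed (3.69% lower), with PTPN21 in VCR 1.82% and for the interaction 0.129%. At an unadjusted limma p under 0.05 there were, of 11591 genes, 2968 with PTPN21 in DMSO. There were 1980 (17.1%) with PTPN21 in VCR and 1624 (14%) for the interaction. The kinetochore platform, on which checkpoint proteins gather, had 14 genes tested. In NC cells with VCR 3 rose and 5 fell (median -0.60), and in PTPN21 cells 4 rose and 2 fell (median 0.17). CENPE, a kinesin that captures microtubules, had the largest rise in both, 1.00 in NC cells and 1.18 in PTPN21 cells, followed by NUF2 (0.53) in NC cells and SPDL1 (0.90), which links dynein to the RZZ complex, in PTPN21 cells. SPC24, a subunit of the NDC80 complex, had the largest fall, -2.22 and -1.28, and DSN1 of the MIS12 complex followed at -0.93 and -0.61. With PTPN21 in DMSO none rose and 2 fell, KNL1 (-0.86), the scaffold that binds BUB1 and BUB3, and TPR (-0.70). KNL1 (14.56 FPKM) and TPR (84.5) were highest in NC+DMSO replicate 3, where the log2 difference of long and short transcripts was 0.52. The part of the length trend in these 2 calls was not tested. With PTPN21 in VCR, and in the interaction, none of the 14 passed in limma, and 3 had an unadjusted p under 0.05 in each.

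KNL1 stood at 10.6 ± 3.42 FPKM (SD, n = 3) in NC+DMSO and 5.91 ± 0.597 in NC+VCR, and at 5.27 ± 0.862 in PTPN21+DMSO and 6.63 ± 0.567 in PTPN21+VCR. It fell with VCR in NC cells (-0.71, limma adjusted p = 0.0226), and the adjusted p was 0.338 with VCR in PTPN21 cells, 0.79 for PTPN21+VCR against NC+VCR and 0.204 for the interaction. NC+DMSO was the highest group, as for KNTC1. Its replicates 1 to 3 stood at 8.60, 8.66 and 14.56 FPKM for KNL1, and the part of the length trend was not tested.

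Of the APC/C subunits and partners 18 of 19 were tested, and UBE2C, an E2 enzyme of the APC/C, did not reach the filter. In NC cells with VCR 1 rose and 7 fell (median -0.34), and in PTPN21 cells 3 rose and 4 fell (median -0.23), with the median in NC cells near the -0.36 of all genes. UBE2S, the E2 enzyme that lengthens ubiquitin chains, rose by 1.77 on the log2 scale in NC cells and by 0.57 in PTPN21 cells, where UBE2D1 rose by 0.91. The largest falls were ANAPC13 (-1.28) and ANAPC2 (-1.12) in NC cells and ANAPC2 (-1.54) and ANAPC13 (-0.92) in PTPN21 cells. With PTPN21 in DMSO 2 rose, UBE2S (1.26) and ANAPC10 (0.55), and none fell, and with PTPN21 in VCR and in the interaction none passed in limma (3 and 6 at an unadjusted p under 0.05). UBE2S stood at 14.5 ± 3.69 FPKM (SD, n = 3) in NC+DMSO and 51.6 ± 10.3 in NC+VCR, and at 35.5 ± 2.74 in PTPN21+DMSO and 53.4 ± 5.64 in PTPN21+VCR, so that NC+DMSO was the lowest group.

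The list of checkpoint silencing factors had 11 of 12 genes tested, with USP44 listed at 0. In NC cells PPP2R5B, a regulatory subunit of the phosphatase PP2A, rose (1.51) and PPP1CB, a catalytic subunit of PP1, fell (-1.75), with a list median of -0.25. The fall of PPP1CB had an SE of 0.602 (limma adjusted p = 0.04). Its values were uneven within the PTPN21 groups, at 4.51, 33.6 and 34.2 FPKM with DMSO and 10.3, 29.6 and 9.14 with VCR. In PTPN21 cells PPP2R5B (1.27) and PPP2R5A (0.64) rose and none fell (median -0.03), and no gene of the list passed in limma with PTPN21 in DMSO, with PTPN21 in VCR or in the interaction (3, 0 and 1 at an unadjusted p under 0.05).
TRIP13, the partner of MAD2L1BP, stood at 19.1 ± 0.516 FPKM (SD, n = 3) in NC+DMSO and 17.6 ± 2.57 in NC+VCR, and at 14.6 ± 1.29 in PTPN21+DMSO and 19.6 ± 2.42 in PTPN21+VCR. Its adjusted p was 0.548 with VCR in NC cells, 0.0693 with VCR in PTPN21 cells, 0.153 with PTPN21 in DMSO, 0.672 with PTPN21 in VCR and 0.314 for the interaction.

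All 14 APC/C substrates and mitotic kinases were tested. In NC cells with VCR 6 rose and 2 fell (median 0.31), and in PTPN21 cells 9 rose and none fell (median 0.76). The largest rises were PLK1 (1.23) and CCNB1 (1.21) in NC cells and HMMR (1.52) and AURKA (1.51) in PTPN21 cells, and the falls in NC cells were CDK1 (-0.43) and CCNA2 (-0.40), the cyclin that is destroyed before the checkpoint is satisfied. With PTPN21 in DMSO AURKA (-1.03) and NEK2 (-0.52) fell, and with PTPN21 in VCR and in the interaction none passed in limma (3 and 4 at an unadjusted p under 0.05).

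CCNB1, the cyclin whose protein the checkpoint protects, stood at 60.1 ± 8.45 FPKM (SD, n = 3) in NC+DMSO and 139 ± 3.39 in NC+VCR, and at 64.7 ± 10.6 in PTPN21+DMSO and 132 ± 6.61 in PTPN21+VCR. It rose by 1.21 (limma adjusted p = 7e-05) in NC cells and 1.03 (limma adjusted p = 0.000236) in PTPN21 cells, and had an adjusted p of 0.684 with PTPN21 in DMSO, 0.826 with PTPN21 in VCR and 0.689 for the interaction. PTTG1, which encodes securin, stood at 216 ± 49.3, 449 ± 50.8, 317 ± 32.0 and 549 ± 28.8 in the same order of groups. It rose with VCR in NC cells by 1.07 (limma adjusted p = 0.000422) and in PTPN21 cells by 0.80 (limma adjusted p = 0.00314). It had an adjusted p of 0.0529 with PTPN21 in DMSO, 0.375 with PTPN21 in VCR and 0.591 for the interaction. MKI67, a marker of cycling cells, stood at 28.6 ± 13.3, 15.4 ± 10.2, 11.4 ± 6.4 and 9.46 ± 2.44 FPKM in the same order, with adjusted p of 0.182 and 0.899 with VCR, 0.156 and 0.72 with PTPN21 and 0.631 for the interaction.

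Genes of S phase, listed for contrast, went the other way. Of 16 tested 13 fell and none rose in NC cells with VCR (median -0.75), and 11 fell and none rose in PTPN21 cells (median -0.64). UNG (-2.07) and GINS2 (-1.58) had the largest falls in NC cells, and UNG (-1.49) and GINS2 (-1.36) in PTPN21 cells. With PTPN21 in DMSO CCNE2 (-1.09) and MCM2 (-0.68) fell, and with PTPN21 in VCR MCM4 fell (-0.92, limma adjusted p = 0.0447), a call lost without any 1 of the PTPN21+DMSO, NC+VCR or PTPN21+VCR libraries. Under median ratio scaling 7 of the 16 passed in each cell population with VCR. Of all 11591 genes, 3063 passed under that scaling in NC cells and 3007 in PTPN21 cells, in either direction. In bulk RNA a change in the share of cells at a phase and a change of RNA per cell cannot be told apart.

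**Figure D5:**
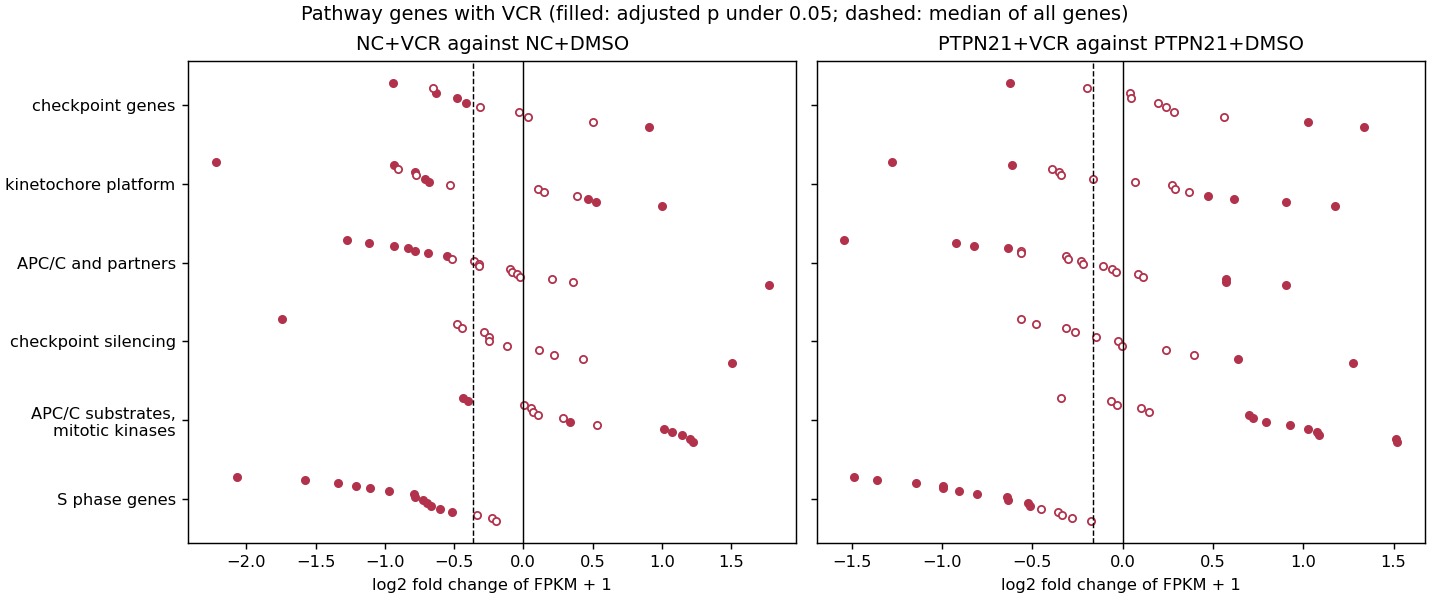
Log2 fold change with VCR (horizontal axis) of every tested gene of the checkpoint and of 5 related lists, in NC cells (left) and PTPN21 cells (right), filled where the limma adjusted p is under 0.05, with the median of all genes dashed. All 16 S phase genes lie below 0 in both panels, and the substrates and mitotic kinases called in PTPN21 cells lie above 0.

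The call counts of the smaller lists moved with single libraries. In PTPN21 cells with VCR the kinetochore list fell from 6 called genes to 3 without PTPN21+DMSO replicate 1 or 3, and in DMSO each of the counts of 2 with PTPN21 was lost or reduced without NC+DMSO replicate 1 or 3, while those of the kinetochore and substrate lists rose to 4 and 5 without NC+DMSO replicate 2. The silencing count of 2 was 1 in NC cells without any NC+DMSO library or NC+VCR replicate 2 or 3, and 1 in PTPN21 cells without PTPN21+DMSO replicate 3 or PTPN21+VCR replicate 1 or 2.

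The genes whose values across the 12 libraries were most like those of a member, by Pearson's r of log2(FPKM + 1) among 6665 genes with a mean of at least 5 FPKM, are given here. CDC20 was most like FCGR1B (0.986), TUBB2A (0.984), a beta-tubulin, and VIM (0.983), vimentin. BUB1B was most like FAM13B (0.983), UHRF1BP1L (0.976) and ELOVL5 (0.974), and MAD1L1 most like SNRNP35 (0.974), SKIV2L (0.971) and NSDHL (0.969). KNTC1 was most like CENPF (0.971), which encodes a kinetochore protein of mitosis, and like RAB14 (0.959), and BUB1 most like AC010422.8 (0.955), HEXA (0.951) and CDCA5 (0.942), the cohesin regulator sororin. For the other members the most alike gene was TRMT13 for TTK (0.943), OSTF1 for BUB3 (0.939), CDNF for ZW10 (0.921), AL139095.2 for MAD2L1BP (0.914) and PSME1 for MAD2L1 (0.776). Among the members themselves r was highest between BUB3 and ZW10 (0.853) and between BUB1 and BUB3 (0.818) and lowest between MAD1L1 and CDC20 (-0.872). These values describe 12 libraries that share their groups and their scaling, and carry no p.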

How the data were processed

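RNA from 12 libraries, 3 per group, was analysed. Groups and replicate numbers were taken from the sample titles (NC, OE, VCR and OEVCR with a number), which do not themselves name DMSO. The authors deposited FPKM for 60671 genes, made by a company. The submitters' processing notes name fastp, Bowtie2 and the mouse build mm10 without versions, although the identifiers are human (96.3% are in GENCODE 29). The counting program is not given in the sources used here. FPKM holds no depth, and values of single-exon genes gave whole fragments too rarely (34.7% to 50.4% of low values within 0.1 of a whole number, against 20% without steps), so depth is unknown and no count test was run.

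From the deposited FPKM, log2(FPKM + 1) was taken for genes with a mean of at least 1 and fitted with limma 3.58.1 (R 4.3.3), with an intensity trend, to the means of all 4 groups at once and with no block. For 5 comparisons, p was adjusted over 11591 genes (Benjamini-Hochberg, threshold 0.05). The script was tested on simulated data. An exact permutation test of 3 against 3 libraries cannot go below p = 0.1.

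The members, lists and tests were chosen with earlier results of these data known. Named were all members, PTPN21, CCNB1, PTTG1, TRIP13, KNL1 and MKI67, per list and comparison the 2 largest rises and 2 largest falls among genes past the threshold, and the 3 most alike genes per member (shortened to 1 for 5 members, and 1 gene is not reported here). Lists of T cell, B cell, myeloid, erythroid and HEK293T markers checked the cell type. Deviations from group means of same-numbered libraries correlated at -0.145 to 0.058, so no pairing was seen, but how replicates were made is not known. The alternatives were another pseudocount, filter, scaling, moderation or set of groups, a replicate block, leaving out each library, and the removal of GC content and length trends per library, which was chosen after seeing the data. Plots were made in Python with matplotlib.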

Additional observations from a re-analysis of the deposited data

How the results depend on the processing

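Each of 18 fold changes of members with an unadjusted p under 0.05 was recomputed under up to 24 alternatives, and none changed sign. CDC20 with VCR passed the threshold in all 24 in both cell populations (log2 fold change 0.81 to 1.29 in NC cells and 1.00 to 1.30 in PTPN21 cells), as did BUB1B in PTPN21 cells (1.08 to 1.51). In NC cells with VCR the number of members called, 5, was 3 with no filter, 2 with median ratio scaling, and 1 with quantile normalization or with only the groups compared, and between 1 and 5 with 1 library left out. It was 3 without NC+DMSO replicate 1 or NC+VCR replicate 1, 2 without NC+DMSO replicate 2 or 3 and 1 without NC+VCR replicate 2. In PTPN21 cells with VCR, 3, it was 5 with quantile normalization and 3 or 4 with 1 library left out. With PTPN21 in DMSO, 2, it was 0 when limma had no trend, and with no filter, quantile normalization, median ratio scaling, only the groups compared, or GC content and length trends removed with or without the replicate block, and 0 to 2 with 1 library left out. With PTPN21 in VCR it was 0, and 1 without NC+VCR replicate 3. No filter meant more genes tested, and only the groups compared meant fewer libraries. With no filter the unadjusted limma p also rose, as for BUB3 in NC cells with VCR (0.00942 to 0.0169). With only the groups compared, the number of all genes called with VCR in PTPN21 cells rose from 3308 to 4157. Why calls were lost was not tested.

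No pairing by replicate number was seen in the deviations from group means, which does not show whether same-numbered libraries shared a culture. With a replicate block the members called were 4 in NC cells with VCR, 4 in PTPN21 cells with VCR, 0 with PTPN21 in DMSO, 0 with PTPN21 in VCR and 0 for the interaction. Over all genes the block moved the number called from 735 to 242 with PTPN21 in DMSO, from 211 to 74 with PTPN21 in VCR and from 15 to 8 for the interaction.

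Over all genes, counts differed from the deposited scaling by more than 1.5 times with only the groups compared (2674 against 4192 in NC cells with VCR, 40 against 735 with PTPN21 in DMSO and 117 against 211 with PTPN21 in VCR), with no filter (177 with PTPN21 in DMSO, 118 with PTPN21 in VCR) and without the trend (321 and 72). They also did so for PTPN21 in DMSO with GC content and length trends removed (473), and for PTPN21 in VCR with median ratio scaling (130) and a mean FPKM of at least 5 (344). With the block and GC content and length trends removed they were 169, 120 and, for the interaction, 4. For the interaction, 15, the count was 8 with a mean FPKM of at least 5 or no filter, 28 with TPM scaling, 9 when limma had no trend and 41 with GC content and length trends removed. With 1 library left out the count was 54 to 1347 with PTPN21 in DMSO, 43 to 357 with PTPN21 in VCR and 7 to 30 for the interaction, so the shares of all genes set beside the members in these comparisons are themselves uncertain. The lowest and highest were without PTPN21+DMSO replicate 1 and NC+DMSO replicate 2, without PTPN21+VCR replicate 2 and NC+DMSO replicate 3, and without NC+DMSO replicates 1 and 2, each left out alone. The share called higher with PTPN21 in DMSO was 41.8%, and 76% with median ratio scaling, 20.5% with TPM scaling and 54.5% with quantile normalization. With PTPN21 in VCR it was 55% and 43.8% with median ratio scaling, and for the interaction 20% of 15 genes, 42.9% of 28 with TPM scaling and 48.8% of 41 with GC content and length trends removed. Depth is unknown, which limits mainly genes of low FPKM.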
